A study of Mus musculus with 5 samples.

Results

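The 48 genes described here carry out or drive mitosis, the division of duplicated chromosomes between daughter cells. They are the listed mitosis symbols found in the gene name column of a table of 30840 features from sorted mouse hair follicle stem cells, and all 48 listed symbols were present. In GENCODE M21, 13 of them overlap an exon of a gene on the opposite strand, whose reads could not be told apart if counting ignored strand: Ccna2, Plk1, Kif4, Kif22, Cdca8, Kif18a, Nusap1, Ckap2l, Nek2, Cdc20, Ube2c, Kif20a and Prc1. The list was grouped by role into mitotic entry, chromosome structure, kinetochore and checkpoint, chromosomal passenger complex, spindle, anaphase onset and cytokinesis. The study asks how the histone mark H2AK119ub, which Polycomb repressive complex 1 (PRC1) attaches through Ring1a or Ring1b, relates to the quiescence of these cells.

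PRC1 i2KO (3 libraries, numbered 1, 2 and 3) came from K15-CrePR1 mice with Ring1a-/- and Ring1b flox/flox alleles. Control (2 libraries, numbered 2 and 3) had the same Ring1a-/- and Ring1b flox/flox alleles, with no Cre transgene named in the genotype. Both groups received 1% topical RU-486 every day for 10 days, starting at postnatal day 50, and skin was collected at postnatal day 70. RU-486 activates the CrePR1 recombinase, which the keratin 15 promoter drives in bulge cells. The controls thus also lacked Ring1a, and the groups differed by the transgene in addition to the deletion it is meant to induce. Per the labels, 50000 cells were sorted per library, and polyadenylated RNA with an integrity number above 8 was sequenced. No label says whether the libraries in a group are from separate animals, and every test therefore measures the spread between these libraries, which may be technical.

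Quiescent hair follicle stem cells of the bulge divide rarely, and they hold mitotic genes at low levels until a new hair cycle begins. In resting cells the DREAM complex, built on the MuvB core, represses many of these genes through a promoter element called the CHR. When cells prepare to divide, B-Myb and then Foxm1 join MuvB and activate the same genes, while the factor NF-Y binds CCAAT boxes nearby. The proteins made then condense chromosomes, attach them to the spindle, release sister chromatids through the anaphase-promoting complex, and cut the cell apart. The member gene Prc1 encodes a microtubule-bundling protein of cytokinesis and is no subunit of the complex PRC1.

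Libraries held 11626006 to 43307694 counts. The share of counts from mitochondrial ribosomal RNA was 29.7%, 21.4% and 32.0% in PRC1 i2KO 1, 2 and 3, and 16.7% and 22.6% in Control 2 and 3. Rnf2, which encodes Ring1b, was at 39.9, 33.1 and 36.4 CPM (counts scaled to library size) in PRC1 i2KO 1, 2 and 3, against 27.7 and 37.5 CPM in Control 2 and 3. These are counts over the whole gene, and which exons carry the loxP sites is not given, so the deletion was not checked by them and groups are named by their labels. All 14 bulge stem cell markers were detected in every library. Their summed level was 7382, 9846 and 6621 TPM in PRC1 i2KO 1, 2 and 3, and 10920 and 8125 TPM in Control 2 and 3. In CPM every PRC1 i2KO library was below both controls in 5 of the 14, beside 15.3% of all genes tested, and above both in 1, beside 14.6%. At an unadjusted p under 0.05 in edgeR 4 were lower and 1 higher, beside 3.51% and 7.43%, and 0 passed after adjustment.

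Mitotic RNA was high in PRC1 i2KO 3, intermediate in PRC1 i2KO 1, and close to control levels in PRC1 i2KO 2. The 48 genes together held 171, 86.4 and 397 TPM in PRC1 i2KO 1, 2 and 3, against 76.1 and 90.4 TPM in Control 2 and 3. TPM is scaled for transcript length, so levels of different genes can be added and compared. PRC1 i2KO 1 and 3 thus lay above both controls, while PRC1 i2KO 2 lay between them. The mean was 218 ± 160 TPM in PRC1 i2KO (SD, n = 3) and 83.2 ± 10.1 TPM in Control (SD, n = 2). Without Mki67 the sums were 158, 82.8 and 364 TPM in PRC1 i2KO 1, 2 and 3, and 74.5 and 87.1 TPM in Control 2 and 3, so that gene did not set the order. In these bulk samples a larger share of dividing cells and more mitotic RNA per cell cannot be told apart.

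No mitosis gene passed edgeR's test of PRC1 i2KO against Control. All 48 passed the filter on low counts, and 0 were higher and 0 lower at an adjusted p under 0.05. Among the 22181 genes tested, edgeR called 0.126% higher and 0% lower. The adjusted p of the members ran from 0.134 to 0.988 in edgeR. At an unadjusted p under 0.05, 23 members were higher and 0 lower, where 7.43% of all genes tested were higher and 3.51% lower. DESeq2 called 11 members higher and 0 lower, against 3.43% of 21722 genes called higher. These 11 were Foxm1, Ccnb1, Ccnb2, Melk, Kif4, Cenpe, Aurkb, Ckap2l, Kif23, Racgap1 and Anln. limma-voom called 0.

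The estimated differences leaned one way. The median log2 fold change of the 48 genes, PRC1 i2KO over Control, was 2.05, beside 0.01 over all genes tested. Of the 48 genes 45 were positive, beside 11172 of the 22181 genes tested. Genes of a list share the same libraries and are not independent, so such counts describe the list and are no test. The members' log2 fold change ran from -0.14 for Incenp to 7.87 for Melk, with 37 members above 1 and none at or below -1. The median was 1.07 without PRC1 i2KO 3, over the 47 members then tested. It was 2.43 without PRC1 i2KO 2, and edgeR then called 3 members higher, Aurkb, Cenpe and Mki67 (adjusted p = 0.0436, 0.0417 and 0.0473 in edgeR), among 39 of 21216 genes called higher. Without PRC1 i2KO 3 the log2 fold change was 1.35 in Ccna2, 1.79 in Top2a, 0.50 in Cenpa, 0.94 in Kif15 and 0.29 in Prc1, each less than its value over all libraries by more than 1.5 times. In log2(TPM + 1) the members had a median of 0.86 with that of all genes at -0.19, and 40 members were positive.

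**Figure D1:**
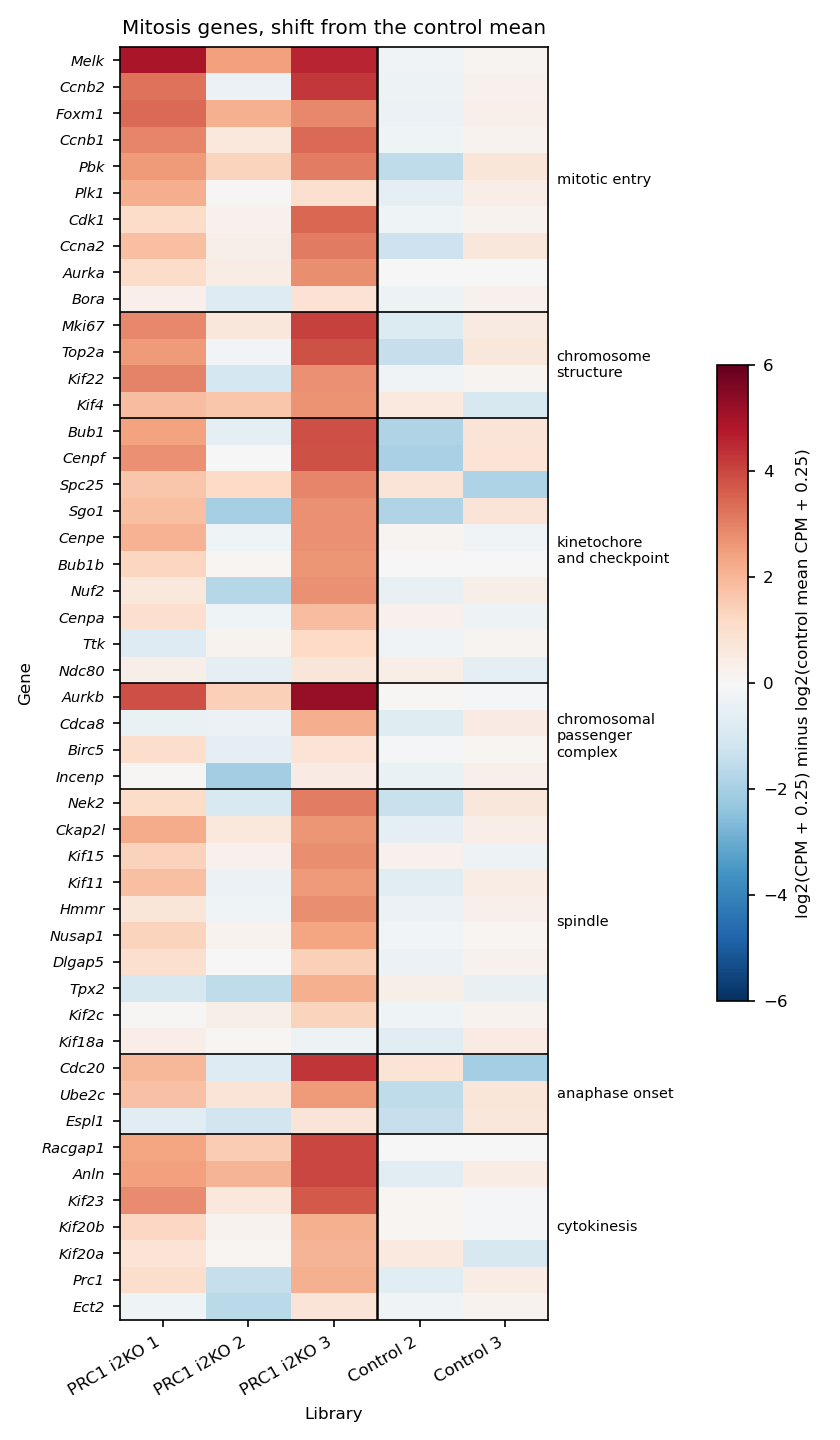
Each row is a mitosis gene, grouped by role, and each column a library, PRC1 i2KO 1 to 3 on the left and Control 2 and 3 on the right. Colour gives the log2 difference of CPM + 0.25 from the mean of the controls: PRC1 i2KO 3 has a median difference of 2.73 over the 48 genes, PRC1 i2KO 1 one of 1.52 and PRC1 i2KO 2 one of 0.09.

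The heat map of the 48 genes shows how unlike the PRC1 i2KO libraries were. The median shift from the control mean, on log2(CPM + 0.25), was 1.52, 0.09 and 2.73 in PRC1 i2KO 1, 2 and 3, and -0.29 and 0.24 in Control 2 and 3. Over all genes tested the same medians lay between -0.09 and 0.01. PRC1 i2KO 3 was above both controls in 47 members, beside 35.5% of all genes tested. PRC1 i2KO 1 was above both controls in 39 members, beside 36.3%. PRC1 i2KO 2 was above both in 21 members, beside 35.4%, and between the controls in 15. It was below both in 12 members, beside 8026 of the 22181 genes tested. All 39 members that were above both controls in PRC1 i2KO 1 were so in PRC1 i2KO 3 as well.

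In 19 members every PRC1 i2KO library exceeded both controls in CPM, beside 14.6% of all genes tested. In no member was every PRC1 i2KO library below both controls, beside 15.3%. In TPM the first count was 13, for which the share of all genes was not counted. There 7 members that did not overlap in CPM did so: Cdk1, Spc25, Bub1b, Aurkb, Kif15, Kif20b and Kif23. Cenpa went the other way, with overlap in CPM but not in TPM. The order PRC1 i2KO 3, then 1, then 2, held in 39 members, beside 14.8% of all genes, and PRC1 i2KO 2 was the lowest of the PRC1 i2KO libraries in 44. The median SD over the PRC1 i2KO libraries was 1.26 on log2(CPM + 0.25) for members and 0.46 for all genes tested. The controls also differed, by a median of 0.76 for members and 0.46 for all genes tested, and Control 3 was the higher in 34 members.

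Fold values per library were taken for the 46 members with more than 3 control counts, as CPM over the control mean. PRC1 i2KO 3 had a median of 7.11-fold, from 0.804 for Kif18a to 71.1 for Aurkb, and 39 members stood above 2-fold. PRC1 i2KO 1 had a median of 2.69-fold, with 33 above 2-fold and 1, Tpx2, below 0.5-fold. PRC1 i2KO 2 had a median of 1.05-fold, from 0.0818 for Sgo1 to 5.05 for Foxm1, with 7 above 2-fold and 10 below 0.5-fold. PRC1 i2KO 3 exceeded PRC1 i2KO 2 by a median of 6.22-fold, from 0.735 to 98.5.

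Other measures of the libraries followed part of this order. The mitochondrial ribosomal RNA share given above was highest in PRC1 i2KO 3 and lowest, among the PRC1 i2KO libraries, in PRC1 i2KO 2. With mitochondrially encoded genes taken out before scaling, the members' median log2 fold change was 2.06. The 14 immune cell markers summed to 28.6, 14.6 and 26.8 TPM in PRC1 i2KO 1, 2 and 3, and to 9.22 and 13.9 TPM in Control 2 and 3, with 6, 1 and 1 of them at 0 in PRC1 i2KO 1, 2 and 3 and 2 and 3 at 0 in Control 2 and 3. The 12 markers of interfollicular epidermis, all detected throughout, summed to 1110, 3652 and 1645 TPM in PRC1 i2KO 1, 2 and 3, and to 1391 and 1115 TPM in Control 2 and 3, and so were highest in the library with the least mitotic RNA of its group. The 12 markers of hair germ and matrix, also detected throughout, summed to 265, 194 and 166 TPM in PRC1 i2KO 1, 2 and 3, and to 164 and 163 TPM in Control 2 and 3. Their median log2 fold change was 0.76, with 10 of the 12 positive, and edgeR called 0. DESeq2 called 3 higher, Msx1, Wnt10a and Lef1 (DESeq2 adjusted p = 0.000184, 0.000333 and 0.00227), beside 3.43% of all genes. In 4 every PRC1 i2KO library exceeded both controls in CPM, beside 14.6% of all genes tested. By the median shift used above, immune markers (9 tested) were at 0.04, 0.14 and -0.07, interfollicular markers at -0.05, 1.76 and 0.56, and hair germ and matrix markers at 1.04, 0.22 and 0.66 in PRC1 i2KO 1, 2 and 3. The part of all these marker levels, and of those that follow, in the mitotic values was not tested.

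The remaining marker lists did not follow the mitotic order in summed TPM, but some did by the median shift. Fibroblast markers (12 genes) summed to 50.6, 57.9 and 57.6 TPM in PRC1 i2KO 1, 2 and 3, and to 71.7 and 42.2 TPM in Control 2 and 3, with 2, 0 and 1 of them at 0 in PRC1 i2KO 1, 2 and 3 and 2 and 1 at 0 in Control 2 and 3. Over the 8 tested, the median log2 fold change was 1.97, with median shifts of 0.47, 1.22 and 1.83 in PRC1 i2KO 1, 2 and 3. DESeq2 called 3 of the 8 higher, Pdgfra, Col1a1 and Vim (DESeq2 adjusted p = 2.13e-10, 0.00343 and 0.00817), beside 3.43% of all genes. Here edgeR called 0 (adjusted p = 0.0502, 0.215 and 0.287 for these in edgeR). Of the 8, 6 had a positive log2 fold change, and the lowest value was -0.71. At an unadjusted p under 0.05 in edgeR 4 were higher and 1 lower, beside 7.43% and 3.51% of all genes tested. Pdgfra was at 32.5, 25.4 and 16.0 CPM in PRC1 i2KO 1, 2 and 3, and at 3.37 and 2.22 CPM in Control 2 and 3, highest in PRC1 i2KO 1. Endothelial markers (6 genes) summed to 6.53, 13.7 and 13.1 TPM in PRC1 i2KO 1, 2 and 3, and to 23.7 and 8.57 TPM in Control 2 and 3. Melanocyte markers (8 genes) summed to 22.9, 38.2 and 20.8 TPM in PRC1 i2KO 1, 2 and 3, and to 71.4 and 44.7 TPM in Control 2 and 3. Sebaceous gland markers (10 genes) summed to 57.3, 63.7 and 67.2 TPM in PRC1 i2KO 1, 2 and 3, and to 68.7 and 39.4 TPM in Control 2 and 3, and the 8 tested had median shifts of 0.56, 0.44 and 0.77 in PRC1 i2KO 1, 2 and 3. Markers of hair shaft and inner root sheath (10 genes, Krt31 at 0 in every library) summed to 47.4, 59.5 and 47.95 TPM in PRC1 i2KO 1, 2 and 3, and to 45.4 and 50.9 TPM in Control 2 and 3, and the 7 tested had median shifts of 0.69, 0.29 and 0.93 in PRC1 i2KO 1, 2 and 3. Both of these lists thus had the order PRC1 i2KO 3, 1, 2 by that measure. The sort was against the Sca1 antigen, and its gene Ly6a was at 3.30, 6.23 and 5.32 TPM in PRC1 i2KO 1, 2 and 3, and at 2.77 and 1.08 TPM in Control 2 and 3.

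The promoters of the mitosis genes were searched for the letters of the CHR and of the CCAAT box. RefSeq promoters (GRCm38.p6, 250 bases before to 50 after the start of transcription) were matched for 39 of the 48 genes. The CHR was searched as TTTGAA or TTCGAA and the CCAAT box as CCAAT, each on both strands. A CHR match was present in 79.5% of the 39 promoters, beside 19.4% of all 27025 promoters. A CCAAT match was present in 74.4%, beside 37.9%, and both in 66.7%, beside 7.70%. CCAAT occurred more than once in 51.3%, beside 12.2%. The 9 members with no promoter there are not included. The matches are a description of letters and were not measured as bound.

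The stretches below, the 180 bases that end just before the start, are chosen examples from different roles. They read 5′ to 3′ on the gene's strand, and capitals mark CHR and CCAAT matches on either strand (reversed as TTCAAA and ATTGG). Mki67 (chr7:135716380-135716559, minus strand) has CHR matches that begin 116 and 98 bases before the start. Top2a (chr11:99024190-99024369, minus strand) has 4 CHR and 4 CCAAT matches. Ckap2l (chr2:129297213-129297392, minus strand), Cdc20 (chr4:118437344-118437523, minus strand) and Ube2c (chr2:164769749-164769928, plus strand) have a single CHR match within 30 bases of the start and more than 1 CCAAT match. Anln (chr9:22389207-22389386, minus strand) has neither in this stretch. Its window of 300 bases that was searched holds 2 CHR matches, so Anln is counted with a CHR match in the share above. Of the other named members with a promoter, Birc5, Cenpa, Cenpf, Kif23, Melk, Prc1 and Racgap1 have no CHR match in their 180 bases. Kif15 has 1 there. In the whole window searched, a CHR match is present in Cenpa, Cenpf, Kif23, Prc1 and Racgap1 and absent in Birc5 and Melk. No CHR match shares bases with a CCAAT match in any of these stretches of 180 bases.
Mki67: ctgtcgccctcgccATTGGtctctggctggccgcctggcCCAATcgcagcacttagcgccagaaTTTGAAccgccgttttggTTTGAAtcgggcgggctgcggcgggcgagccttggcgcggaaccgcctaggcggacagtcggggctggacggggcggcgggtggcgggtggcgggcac
Top2a: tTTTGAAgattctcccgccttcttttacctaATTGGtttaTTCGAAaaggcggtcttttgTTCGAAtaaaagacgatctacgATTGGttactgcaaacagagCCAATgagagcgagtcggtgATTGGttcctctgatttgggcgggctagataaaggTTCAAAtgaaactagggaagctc
Ckap2l: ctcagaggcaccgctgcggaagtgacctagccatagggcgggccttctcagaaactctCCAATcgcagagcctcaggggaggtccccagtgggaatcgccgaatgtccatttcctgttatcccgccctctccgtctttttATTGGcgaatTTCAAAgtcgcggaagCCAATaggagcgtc
Cdc20: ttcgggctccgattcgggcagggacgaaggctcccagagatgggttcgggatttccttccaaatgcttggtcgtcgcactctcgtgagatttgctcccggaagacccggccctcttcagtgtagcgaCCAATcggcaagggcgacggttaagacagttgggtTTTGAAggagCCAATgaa
Ube2c: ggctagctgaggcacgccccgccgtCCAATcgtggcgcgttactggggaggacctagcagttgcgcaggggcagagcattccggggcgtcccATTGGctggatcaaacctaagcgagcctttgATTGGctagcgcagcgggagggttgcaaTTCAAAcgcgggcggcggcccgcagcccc
Anln: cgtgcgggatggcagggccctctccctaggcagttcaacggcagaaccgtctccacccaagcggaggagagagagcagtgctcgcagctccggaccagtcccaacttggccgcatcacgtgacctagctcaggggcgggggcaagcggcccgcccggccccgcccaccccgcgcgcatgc

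Mitotic entry is driven by cyclins with Cdk1, and by the kinases that activate them. The 10 members of this role summed to 24.5, 19.5 and 47.2 TPM in PRC1 i2KO 1, 2 and 3, against 5.45 and 14.1 TPM in Control 2 and 3. PRC1 i2KO 2 lay above both controls through Foxm1, and without that gene the sums were 20.6, 11.0 and 45.1 TPM in PRC1 i2KO 1, 2 and 3, against 5.18 and 13.3 TPM in Control 2 and 3, with PRC1 i2KO 2 between them. The median log2 fold change of all 10 was 2.83, and 7 were higher at an unadjusted p under 0.05 in edgeR, beside 7.43% of all genes tested. Foxm1 (ENSMUSG00000001517.14), the forkhead transcription factor that activates G2/M genes, was at 16.8, 6.97 and 11.6 CPM in PRC1 i2KO 1, 2 and 3, and at 1.02 and 1.75 CPM in Control 2 and 3. All PRC1 i2KO libraries stood above both controls, PRC1 i2KO 1 highest, and the log2 fold change was 3.12 ± 0.60 (SE; edgeR adjusted p = 0.134). In TPM the order differed, with 3.85, 8.48 and 2.07 in PRC1 i2KO 1, 2 and 3, and 0.268 and 0.788 in Control 2 and 3. The transcript length implied by counts over TPM, relative to the median gene of each library, also varied. It was 1.44, 0.358 and 2.07 in PRC1 i2KO 1, 2 and 3, and 2.14 and 0.870 in Control 2 and 3. Separately, exons of Foxm1 overlap those of Tex52 and Gm44596 on the same strand in GENCODE M21, so reads may be split between them. The cause of the different order was not tested.

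Melk, a kinase of dividing and progenitor cells, had 186, 60 and 213 counts in PRC1 i2KO 1, 2 and 3, and 0 and 1 counts in Control 2 and 3. All PRC1 i2KO libraries were thus above both controls, with a ratio of 291 and a 95% counting interval of 51.9 to 11500, which covers counting error only (edgeR adjusted p = 0.139). Ccna2, the cyclin of S phase and early mitosis, was at 10.3, 3.63 and 26.1 CPM in PRC1 i2KO 1, 2 and 3, and at 1.02 and 4.52 CPM in Control 2 and 3. PRC1 i2KO 2 lay within the range of the controls, and the log2 fold change was 2.32 ± 0.92 (SE; edgeR adjusted p = 0.408). Bora, which helps Aurora A activate Plk1, was at 9.35, 4.31 and 13.9 CPM in PRC1 i2KO 1, 2 and 3, and at 6.03 and 9.12 CPM in Control 2 and 3. These groups overlapped, with log2 fold change 0.28 ± 0.55 (SE; edgeR adjusted p = 0.907), and the sign turned to -0.12 in log2(TPM + 1).

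The other entry members were chosen for description after their values were seen. Ccnb1, a mitotic cyclin, was at 8.66, 1.56 and 12.1 CPM in PRC1 i2KO 1, 2 and 3, and at 0.711 and 1.11 CPM in Control 2 and 3, with no overlap. Ccnb2, another B-type cyclin, was at 5.55, 0.226 and 11.3 CPM in PRC1 i2KO 1, 2 and 3, and at 0.244 and 0.476 CPM in Control 2 and 3, where PRC1 i2KO 2 was the lowest of the 5. Cdk1 was at 2.29, 1.17 and 12.8 CPM in PRC1 i2KO 1, 2 and 3, and at 0.751 and 1.11 CPM in Control 2 and 3. Pbk, a mitotic kinase, and Aurka, the centrosome kinase Aurora A, also had no overlap between groups, with log2 fold changes of 2.90 and 2.21. Plk1, which promotes entry and cytokinesis, had 31, 6 and 15 counts in PRC1 i2KO 1, 2 and 3, and 0 and 3 counts in Control 2 and 3, a ratio of 11.0 with 95% counting bounds of 3.55 and 54.9 (edgeR adjusted p = 0.651).

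Genes that shape mitotic chromosomes were far apart between the PRC1 i2KO libraries. The 4 members summed to 31.0, 8.91 and 73.9 TPM in PRC1 i2KO 1, 2 and 3, against 6.08 and 9.97 TPM in Control 2 and 3, so that PRC1 i2KO 2 lay between the controls. Mki67 (ENSMUSG00000031004.8), which coats mitotic chromosomes and marks cycling cells, was at 13.1, 3.67 and 32.5 TPM in PRC1 i2KO 1, 2 and 3, against 1.58 and 3.23 TPM in Control 2 and 3. Every PRC1 i2KO library was above both controls, PRC1 i2KO 2 only narrowly, and the log2 fold change was 3.14 ± 0.87 (SE; edgeR adjusted p = 0.240). Top2a, the topoisomerase that untangles sister chromatids, was at 55.4, 8.17 and 135 CPM in PRC1 i2KO 1, 2 and 3, and at 3.47 and 15.2 CPM in Control 2 and 3. PRC1 i2KO 2 lay between the controls, and the log2 fold change was 2.88 ± 1.05 (SE; edgeR adjusted p = 0.359). The chromokinesin Kif4 was at 8.02, 7.15 and 14.5 CPM in PRC1 i2KO 1, 2 and 3, and at 3.17 and 0.952 CPM in Control 2 and 3, with no overlap. Kif22, another chromokinesin, had 116, 4 and 140 counts in PRC1 i2KO 1, 2 and 3, and 18 and 7 counts in Control 2 and 3. Kif4 and Kif22 were described after their values were seen.

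**Figure D2:**
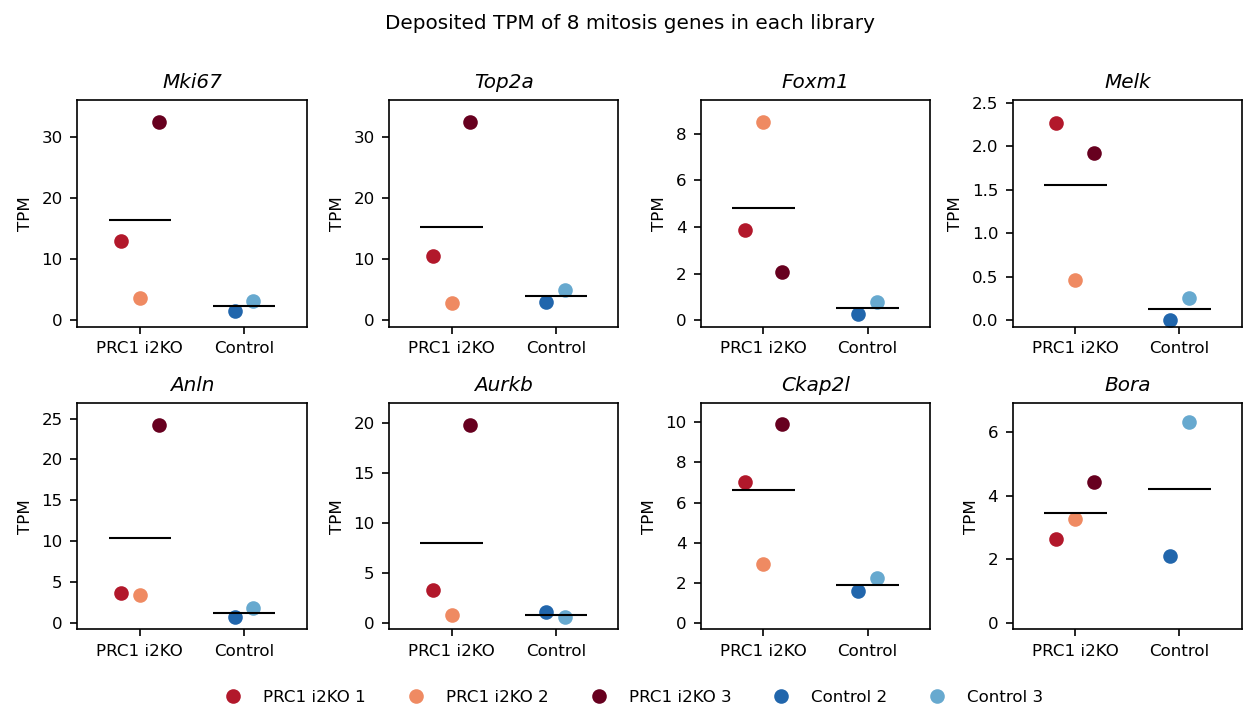
Points give the TPM of 8 mitosis genes in each library and lines the group means, PRC1 i2KO 1 to 3 on the left of each panel and Control 2 and 3 on the right, on a linear axis. For Mki67 PRC1 i2KO 3 is at 32.5 TPM and PRC1 i2KO 2 at 3.67 TPM, next to Control 3 at 3.23 TPM.

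Kinetochores join chromosomes to spindle microtubules, and the checkpoint holds anaphase until they are attached. The 10 members summed to 31.1, 14.5 and 68.3 TPM in PRC1 i2KO 1, 2 and 3, against 17.4 and 11.4 TPM in Control 2 and 3, with PRC1 i2KO 2 between the controls. Their median log2 fold change was 1.91, and 3 were higher at an unadjusted p under 0.05 in edgeR, beside 7.43% of all genes tested. In 2 every PRC1 i2KO library was above both controls in CPM, beside 14.6% of all genes tested. Cenpa, the histone H3 variant of centromeres, was at 16.9, 7.08 and 30.5 CPM in PRC1 i2KO 1, 2 and 3, and at 10.1 and 6.66 CPM in Control 2 and 3, with log2 fold change 1.11 ± 0.58 (SE; edgeR adjusted p = 0.538). Cenpf, a large kinetochore protein of G2 and M phase, was at 52.9, 7.51 and 109 CPM in PRC1 i2KO 1, 2 and 3, and at 1.79 and 13.4 CPM in Control 2 and 3, with log2 fold change 2.96 ± 1.11 (SE; edgeR adjusted p = 0.375). In both genes PRC1 i2KO 2 lay between the controls in CPM. In TPM Cenpa was at 7.64, 5.69 and 16.2 in PRC1 i2KO 1, 2 and 3, and at 5.38 and 2.87 in Control 2 and 3, with no overlap. The controls themselves differed 7.50-fold in Cenpf.

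Of the other kinetochore and checkpoint members, described after their values were seen, Cenpe and Spc25 had the smallest p. Cenpe, a kinetochore motor, was at 45.9, 8.80 and 72.9 CPM in PRC1 i2KO 1, 2 and 3, and at 12.1 and 9.20 CPM in Control 2 and 3, so PRC1 i2KO 2 was below both controls. Spc25, a subunit of the Ndc80 complex, was at 5.41, 3.77 and 13.0 CPM in PRC1 i2KO 1, 2 and 3, and at 2.80 and 0.238 CPM in Control 2 and 3. Bub1b, a checkpoint protein, was at 4.49, 1.83 and 11.7 CPM in PRC1 i2KO 1, 2 and 3, and at 1.69 and 1.67 CPM in Control 2 and 3. Both genes were free of overlap in CPM, but in TPM PRC1 i2KO 2 was below Control 2 in each. The checkpoint kinase Bub1 had 114, 20 and 467 counts in PRC1 i2KO 1, 2 and 3, and 2 and 19 counts in Control 2 and 3. Sgo1, which guards centromeric cohesion, had 99, 4 and 281 counts in PRC1 i2KO 1, 2 and 3, and 7 and 26 counts in Control 2 and 3. Nuf2 followed the same order with a log2 fold change of 1.71. Ndc80 and the checkpoint kinase Ttk were near level, at 0.26 and 0.45, and in Ttk it was PRC1 i2KO 1 that lay below both controls.

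The chromosomal passenger complex corrects faulty attachments and moves to the midzone for cytokinesis, and its 4 subunits did not behave alike. Together they summed to 16.97, 4.70 and 42.8 TPM in PRC1 i2KO 1, 2 and 3, against 8.06 and 11.7 TPM in Control 2 and 3, with PRC1 i2KO 2 below both controls. Aurkb, the kinase subunit Aurora B, was at 7.42, 1.17 and 19.3 CPM in PRC1 i2KO 1, 2 and 3, and at 0.305 and 0.238 CPM in Control 2 and 3. It showed no overlap in CPM, and the log2 fold change was 5.04 ± 1.21 (SE; edgeR adjusted p = 0.189). In TPM it was at 3.31, 0.771 and 19.8 in PRC1 i2KO 1, 2 and 3, and at 1.08 and 0.603 in Control 2 and 3, so the groups overlapped and the ratio of means was 9.45 rather than the 34.3 of CPM. The controls held 15 and 3 counts of Aurkb. Birc5 (survivin) was at 12.9, 4.22 and 10.9 CPM in PRC1 i2KO 1, 2 and 3, and at 5.71 and 6.59 CPM in Control 2 and 3, with log2 fold change 0.60 ± 0.55 (SE; edgeR adjusted p = 0.754). Incenp, the scaffold, was at 13.5, 2.78 and 18.3 CPM in PRC1 i2KO 1, 2 and 3, and at 9.54 and 16.0 CPM in Control 2 and 3, the lowest log2 fold change of the 48 at -0.14. Cdca8 (borealin) was at 3.25, 3.34 and 20.6 CPM in PRC1 i2KO 1, 2 and 3, and at 2.48 and 6.19 CPM in Control 2 and 3. Incenp and Cdca8 were described after their values were seen.

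Spindle motors and microtubule-binding proteins had a median log2 fold change of 1.66 over 10 members. They summed to 31.7, 20.0 and 67.5 TPM in PRC1 i2KO 1, 2 and 3, against 19.8 and 22.1 TPM in Control 2 and 3, with PRC1 i2KO 2 between the controls. Ckap2l, a spindle protein of progenitors, was at 28.1, 9.23 and 37.0 CPM in PRC1 i2KO 1, 2 and 3, and at 3.96 and 7.62 CPM in Control 2 and 3. The groups did not overlap, and the log2 fold change was 2.12 ± 0.60 (SE; edgeR adjusted p = 0.246). Kif15, a kinesin that keeps spindle poles apart, was at 10.1, 4.53 and 27.2 CPM in PRC1 i2KO 1, 2 and 3, and at 4.53 and 3.02 CPM in Control 2 and 3. PRC1 i2KO 2 and Control 2 were level in that gene, and the log2 fold change was 1.87 ± 0.73 (SE; edgeR adjusted p = 0.398).

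The remaining spindle members were described after their values were seen. Kif11, the motor that separates spindle poles, was at 17.9, 3.84 and 29.9 CPM in PRC1 i2KO 1, 2 and 3, and at 3.09 and 6.74 CPM in Control 2 and 3. Nusap1, which bundles spindle microtubules, was at 14.2, 6.496 and 29.8 CPM in PRC1 i2KO 1, 2 and 3, and at 4.95 and 6.03 CPM in Control 2 and 3, with no overlap. Hmmr, Dlgap5 and the kinase Nek2 followed the order PRC1 i2KO 3, 1, 2, with log2 fold changes of 1.71, 0.97 and 2.13. Tpx2, which activates Aurora A on the spindle, was high in 1 library alone, at 2.61, 1.67 and 23.9 CPM in PRC1 i2KO 1, 2 and 3, and at 6.78 and 3.81 CPM in Control 2 and 3. Kif18a, which damps chromosome movement, was the 1 member in which PRC1 i2KO 3 did not exceed both controls, at 16.6, 13.9 and 10.2 CPM in PRC1 i2KO 1, 2 and 3, and at 7.74 and 17.7 CPM in Control 2 and 3. Kif2c, which depolymerizes microtubules at kinetochores, differed in sign between scales. Its log2 fold change in counts was 0.77, while in TPM it was at 2.81, 2.92 and 2.56 in PRC1 i2KO 1, 2 and 3, and at 3.81 and 3.08 in Control 2 and 3, the single member with every PRC1 i2KO library below both controls in TPM.

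Anaphase begins when the anaphase-promoting complex, with its activator Cdc20 and its ubiquitin-conjugating enzyme Ube2c, frees separase, the product of Espl1. The 3 members summed to 13.3, 7.89 and 30.7 TPM in PRC1 i2KO 1, 2 and 3, against 4.30 and 8.13 TPM in Control 2 and 3. Ube2c was at 11.2, 5.55 and 19.3 CPM in PRC1 i2KO 1, 2 and 3, and at 0.934 and 5.32 CPM in Control 2 and 3. Its groups did not overlap, PRC1 i2KO 2 standing just above Control 3, and the log2 fold change was 1.99 ± 0.81 (SE; edgeR adjusted p = 0.425). Cdc20 had 81, 15 and 615 counts in PRC1 i2KO 1, 2 and 3, and 75 and 0 counts in Control 2 and 3, where a count of 0 allows up to 0.238 CPM. Its log2 fold change was 3.22 ± 1.65 (SE; edgeR adjusted p = 0.530), with PRC1 i2KO 2 between the controls. It was 1.32 without PRC1 i2KO 3. Without Control 2 the 1 control left had no count, and the fitted 10.76 then depends on the prior count. Espl1, described after its values were seen, was at 4.54, 3.27 and 13.0 CPM in PRC1 i2KO 1, 2 and 3, and at 2.72 and 12.1 CPM in Control 2 and 3, a log2 fold change of -0.08.

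Genes of cytokinesis split the daughter cells. Of these 7 members 4 were higher at an unadjusted p under 0.05 in edgeR, beside 7.43% of all genes tested. The role summed to 22.4, 11.0 and 66.3 TPM in PRC1 i2KO 1, 2 and 3, against 15.0 and 12.9 TPM in Control 2 and 3, so PRC1 i2KO 2 was below both controls. Anln (ENSMUSG00000036777.8), the anillin that scaffolds the contractile ring, was at 21.3, 15.7 and 61.4 CPM in PRC1 i2KO 1, 2 and 3, and at 2.21 and 4.998 CPM in Control 2 and 3. It was above both controls in every PRC1 i2KO library, with log2 fold change 3.23 ± 0.68 (SE; edgeR adjusted p = 0.150). Racgap1, a subunit of centralspindlin, was at 5.18, 2.78 and 16.5 CPM in PRC1 i2KO 1, 2 and 3, and at 0.792 and 0.793 CPM in Control 2 and 3, with log2 fold change 3.35 ± 0.89 (SE; edgeR adjusted p = 0.221). Its partner Kif23, the centralspindlin motor, was at 9.81, 1.90 and 17.9 CPM in PRC1 i2KO 1, 2 and 3, and at 1.28 and 1.03 CPM in Control 2 and 3, with log2 fold change 3.07 ± 0.91 (SE; edgeR adjusted p = 0.264). Neither centralspindlin gene overlapped between groups in CPM. In TPM Kif23 was at 6.26, 1.71 and 9.84 in PRC1 i2KO 1, 2 and 3, and at 2.62 and 2.01 in Control 2 and 3, so PRC1 i2KO 2 was below both controls and the ratio of means was 2.56 rather than the 8.53 of CPM.

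Prc1, which bundles midzone microtubules, was at 16.4, 2.82 and 35.3 CPM in PRC1 i2KO 1, 2 and 3, and at 5.04 and 10.7 CPM in Control 2 and 3. PRC1 i2KO 2 was below both controls in it, and the log2 fold change was 1.22 ± 0.85 (SE; edgeR adjusted p = 0.664). The others were described after their values were seen. Kif20b did not overlap between groups in CPM, although PRC1 i2KO 2 lay between the controls in TPM, at 13.4, 6.34 and 25.0 CPM in PRC1 i2KO 1, 2 and 3, and at 6.01 and 4.998 CPM in Control 2 and 3. Kif20a was at 6.55, 3.99 and 15.8 CPM in PRC1 i2KO 1, 2 and 3, and at 5.56 and 1.75 CPM in Control 2 and 3. Ect2, which activates RhoA at the cleavage site, was at 2.89, 0.993 and 6.33 CPM in PRC1 i2KO 1, 2 and 3, and at 2.99 and 4.13 CPM in Control 2 and 3, a log2 fold change of -0.06.

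**Figure D3:**
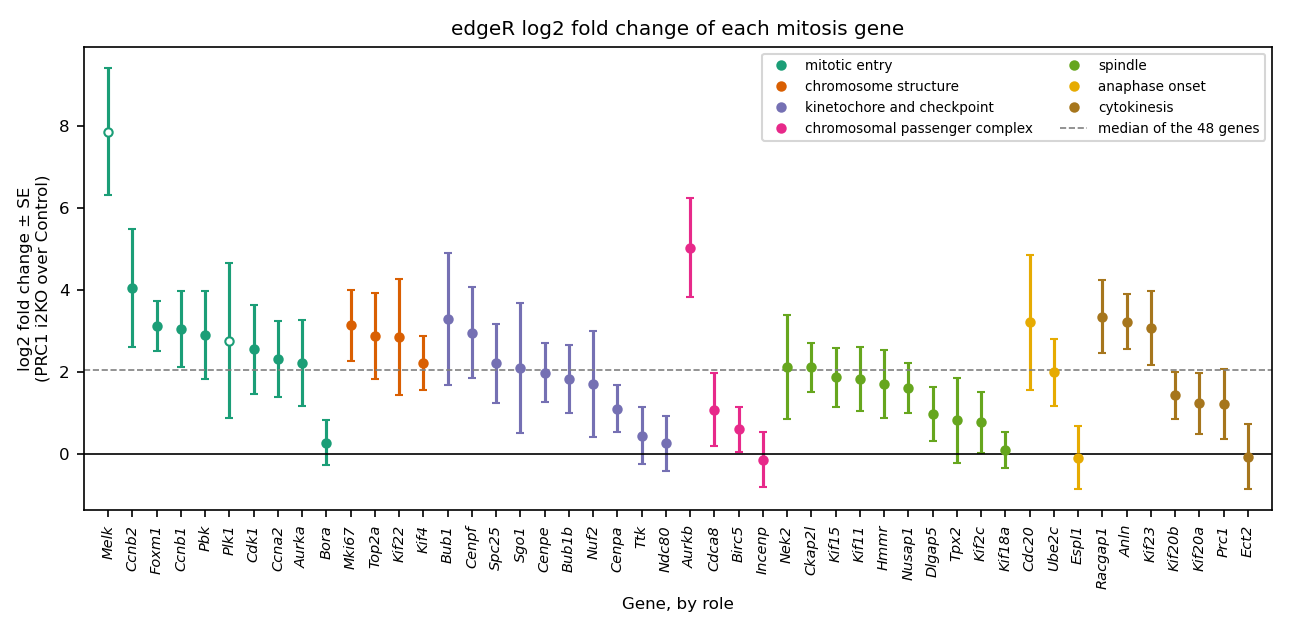
The log2 fold change of each mitosis gene in counts, PRC1 i2KO over Control from edgeR, is ordered by role, with bars of 1 standard error. Open points mark Melk and Plk1, which had 3 or fewer control counts and whose fitted value depends on the prior count. Of 48 points 45 lie above 0 and none passed an adjusted p of 0.05.

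The members with the highest levels also differed by library. Mki67, Top2a and Ube2c led in PRC1 i2KO 1 at 13.1, 10.5 and 10.3 TPM. Foxm1, Ube2c and Cenpa led in PRC1 i2KO 2 at 8.48, 6.63 and 5.69 TPM. In CPM, however, Foxm1 was lower in PRC1 i2KO 2, at 6.97, than in PRC1 i2KO 1 and 3, at 16.8 and 11.6. Top2a, Mki67 and Anln led in PRC1 i2KO 3 at 32.5, 32.5 and 24.2 TPM. Cenpa, Ect2 and Kif15 led in Control 2 at 5.38, 4.94 and 4.13 TPM, and Bora, Ube2c and Prc1 led in Control 3 at 6.31, 5.88 and 5.32 TPM. Across the 48 genes, which are not independent, Spearman's rho between the TPM of libraries ran from 0.204 for PRC1 i2KO 3 with Control 2 to 0.623 for PRC1 i2KO 1 with PRC1 i2KO 3. At least 1 TPM was reached by 42, 29 and 47 members in PRC1 i2KO 1, 2 and 3, and by 29 in each control.

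A wider list of 124 other mitotic genes, chosen from textbook roles with earlier results of these data known, lay closer to the controls. edgeR called 0 of them, with 14 higher and 1 lower at an unadjusted p under 0.05, beside the 7.43% and 3.51% of all genes given above. DESeq2 called 8 higher and 0 lower, beside 3.43% of all genes called higher. Their median log2 fold change was 0.44, and 98 of the 124 were positive, beside 11172 of the 22181 genes tested. Their median shift was 0.38, -0.01 and 0.58 in PRC1 i2KO 1, 2 and 3. Ccnf, an F-box cyclin of G2, had the smallest edgeR adjusted p of the list at 0.205, and was at 6.42, 3.07 and 9.30 CPM in PRC1 i2KO 1, 2 and 3, against 0.690 and 0.952 CPM in Control 2 and 3. Cks1b, a Cdk subunit, was at 29.1, 14.5 and 19.6 CPM in PRC1 i2KO 1, 2 and 3, against 7.80 and 7.46 CPM in Control 2 and 3 (edgeR adjusted p = 0.225). Bub3, a checkpoint protein, was at 38.0, 52.5 and 39.6 CPM in PRC1 i2KO 1, 2 and 3, against 20.9 and 24.4 CPM in Control 2 and 3 (edgeR adjusted p = 0.240). These genes did not overlap between groups, and in Bub3 it was PRC1 i2KO 2 that stood highest.

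Aspm, Kntc1 and Gtse1, also of the wider list, were named for their small p. The spindle pole protein Aspm was at 28.1, 5.41 and 35.1 CPM in PRC1 i2KO 1, 2 and 3, against 0.914 and 4.13 CPM in Control 2 and 3, with log2 fold change 3.26 ± 0.91 (SE; edgeR adjusted p = 0.240). Kntc1, of the kinetochore corona, was at 4.399, 0.767 and 15.0 CPM in PRC1 i2KO 1, 2 and 3, against 0.305 and 0.555 CPM in Control 2 and 3, with log2 fold change 4.02 ± 1.25 (SE; edgeR adjusted p = 0.286). Gtse1, a microtubule-binding protein of G2 and M phase, was at 2.11, 6.68 and 3.89 CPM in PRC1 i2KO 1, 2 and 3, against 0.629 and 0.793 CPM in Control 2 and 3, with log2 fold change 2.58 ± 0.80 (SE; edgeR adjusted p = 0.286). All 3 stood above both controls in every PRC1 i2KO library in CPM, and in TPM Kntc1 did not. Genes of the anaphase-promoting complex and its cofactors had a median log2 fold change of 0.06 and those of condensin and cohesion 0.27, while genes of Cdk1 control had 0.77 and those of centromere and kinetochore 0.62.

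**Figure D4:**
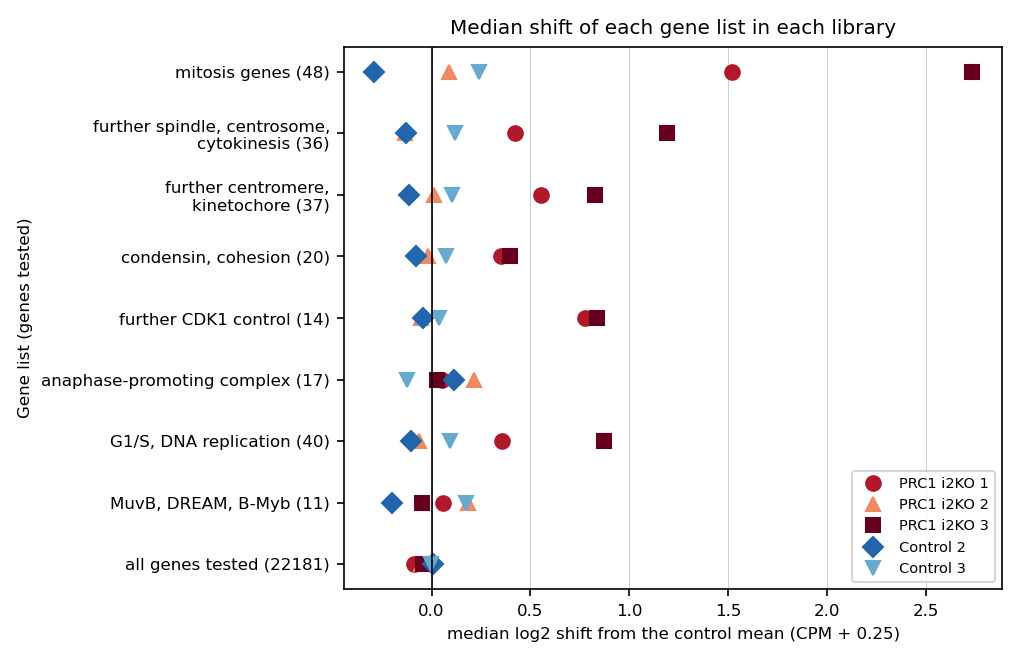
Gene lists run down the page, the mitosis genes at the top and all genes tested at the bottom, with the number tested in brackets. Symbols give each library's median log2 difference of CPM + 0.25 from the control mean: the mitosis genes reach 1.52 in PRC1 i2KO 1 and 2.73 in PRC1 i2KO 3, whereas the 124 other mitotic genes, drawn as their 5 groups, reach 0.38 and 0.58 as a whole.

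The 11 genes of the MuvB core, its DREAM partners and B-Myb had a median log2 fold change of 0.04, and their median shift was 0.06, 0.18 and -0.05 in PRC1 i2KO 1, 2 and 3. edgeR called 0 of them, and 0 had an unadjusted p under 0.05. Mybl2, which encodes B-Myb, was at 6.37, 0.790 and 1.90 CPM in PRC1 i2KO 1, 2 and 3, against 0.0609 and 0.873 CPM in Control 2 and 3, with log2 fold change 2.82 ± 1.36 (SE; edgeR adjusted p = 0.497). PRC1 i2KO 2 thus lay between the controls in that gene.

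Genes of the preceding steps, G1/S and DNA replication, had a median log2 fold change of 0.46 over 40 genes. edgeR called 0, with 8 higher and 0 lower at an unadjusted p under 0.05, beside 7.43% and 3.51% of all genes tested. With DESeq2 3 were called higher, beside 3.43%. Their median shift was 0.36, -0.07 and 0.87 in PRC1 i2KO 1, 2 and 3, the same order of libraries as in the mitosis genes. Rrm2, a subunit of the reductase that makes deoxynucleotides, was at 21.5, 8.55 and 28.3 CPM in PRC1 i2KO 1, 2 and 3, against 2.72 and 4.92 CPM in Control 2 and 3 (edgeR adjusted p = 0.197). Mcm5, of the replicative helicase, was at 8.80, 7.60 and 14.5 CPM in PRC1 i2KO 1, 2 and 3, against 2.497 and 2.697 CPM in Control 2 and 3 (edgeR adjusted p = 0.215). Cdc7, the kinase that fires origins, was at 14.3, 6.05 and 9.74 CPM in PRC1 i2KO 1, 2 and 3, against 2.32 and 2.46 CPM in Control 2 and 3 (edgeR adjusted p = 0.225). Each of these genes stood above both controls in every PRC1 i2KO library.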

How the data were processed

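Polyadenylated RNA of 5 libraries was analysed from 1 table. The authors deposited an estimated (expected) count and a TPM value per gene and library, both for 30840 features. Per the submitters' processing notes, the tools were RSEM 1.3.3, STAR 2.7.9a and DESeq2 1.38.2, on build mm39, with no roles stated. Strand use in counting is not given in the sources used, and 13 members overlap an exon of a gene on the opposite strand. Of the deposited expected counts 60.4% were not whole, and they were rounded for the tests. Groups follow the labelled genotype.

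The 48 members and the other gene lists were chosen with earlier results of these data known. The test was edgeR's (version 4.0.16, R 4.3.3, filterByExpr, TMM, quasi-likelihood F test, group only), with Benjamini-Hochberg adjustment over 22181 genes and a threshold of 0.05. CPM uses TMM-scaled library sizes, so 1 count stood for 0.0203 to 0.0793 CPM. The floor for a count of 0 is 3 counts per library, and counting intervals are at 95%. Alternatives used DESeq2 1.42.0, limma 3.58.1 (voom, and log2 of TPM plus 1 or 0.1), other scaling, no filter, each library left out, and replicate blocks. Named members were the 2 with the highest mean TPM in each role, the 8 with the smallest p, and Mki67, Foxm1, Anln, Aurkb and Melk. Also named were the 6 other mitotic genes and regulators with the smallest p, Mybl2, and the 3 such G1/S genes. Promoters are from RefSeq on GRCm38.p6, and gene overlaps were found from the exon coordinates of GENCODE M21 (GRCm38), which are not printed.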

Additional observations from a re-analysis of the deposited data

How the results depend on the processing

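The number of mitosis genes called higher was 0 with edgeR, 11 with DESeq2, 5 with no filter on low counts and 6 with a replicate block by title numbers, and 0 to 3 when 1 library was left out. It was 0 with limma-voom, limma on TPM, DESeq2's size factors, no mitochondrially encoded genes, and a replicate block by description numbers. The 3 calls came without PRC1 i2KO 2. The counts over all genes called higher moved too, at 28 of 22181 with edgeR, 745 of 21722 with DESeq2, 140 of 30633 with no filter, 140 of 22181 with the title block and 39 of 21216 without PRC1 i2KO 2. The members' median log2 fold change, 2.05, ranged from 1.07 (without PRC1 i2KO 3) to 2.43 (without PRC1 i2KO 2), and was 1.64 without Control 2. It was 1.49 and 0.88 under the blocks by title and description, and 0.86 and 1.14 on log2(TPM + 1) and log2(TPM + 0.1). Of the 124 other mitotic genes DESeq2 called 8 and the title block 2, and their median, 0.44, was 0.055 and 0.073 on these TPM scales and 0.24 to 0.56 with a library left out. Bora, 0.28, reached 0.62 without PRC1 i2KO 2 and turned negative on the TPM scales (-0.12 and -0.12), without PRC1 i2KO 3 (-0.15) and under the description block (-0.22), where Prc1 was -0.086. The other 26 named genes kept their direction in every setting run. The numbers of titles and descriptions disagree for the controls, so the numbers were not taken as pairs. The deviations of same-numbered libraries from their group means correlated at 0.07 and 0.05 by title and at -0.03 and -0.07 by description. With 2 controls, the deviation of 1 is that of the other with its sign turned, so these correlations cannot decide whether libraries were paired. The cause of each change was not tested. With 11626006 counts, Control 3 limits the low genes most.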
